A study of Homo sapiens with 6 samples.

Results

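The RNAs described here were 38 long noncoding RNAs, most of them host transcripts of small nucleolar RNAs (snoRNAs) and the others well-known nuclear, cytoplasmic or microRNA host transcripts. They were chosen by name: every gene called SNHG and a number, together with GAS5, ZFAS1, DANCR, EPB41L4A-AS1, MALAT1, NEAT1, NORAD, TUG1, OIP5-AS1, MEG3, H19, CYTOR, MIR22HG, MIR17HG, KCNQ1OT1 and PVT1. Of the 58884 genes in the deposited table, 41 carried 1 of these names, and 38 had at least 10 counts in at least 3 of the 6 libraries. Just inside that minimum was SNHG22, with 9 to 14 counts. Just outside were SNHG25, with 0 to 6 counts, and SNHG28, with 0 to 5.88, while SNHG27 was listed at 0 in every library. All 38 were kept by the filter on low counts in the main edgeR tests over 4 and over 6 libraries, though not in every alternative fit.

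The cells were an immortalized human ventricular cardiomyocyte line. The labels name T0519, while the published text of the study names AC16 for this experiment. The study used AC16 and T0519 as different lines, and the sources do not settle which was sequenced. The knockdown group (SiCIRBP, 3 libraries) received siRNA against CIRBP, a cold-inducible RNA-binding protein, and the control group (NC, 3 libraries) received a negative control siRNA, so the groups shared the line and differed in the siRNA of a transient transfection. Nothing in the sources says that the 3 libraries of a group came from separate cultures, and p-values then measure only the spread between these libraries, which may be technical. The study compared the groups to find transcripts that depend on CIRBP.

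Many snoRNAs, which guide chemical modification of ribosomal RNA, are cut from the introns of host genes, and the spliced exons of several hosts are quickly removed by nonsense-mediated decay. Hosts often begin with a pyrimidine run like that of ribosomal protein mRNAs. NEAT1 is the scaffold of paraspeckles and MALAT1 is held in nuclear speckles, both being nuclear bodies that store RNA-binding and splicing proteins.

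CIRBP itself was measured at 86.4, 85.8 and 91.0 CPM (counts scaled to library size) in NC_1, NC_2 and NC_3, and at 54.8, 24.3 and 46.3 CPM in SiCIRBP_1, SiCIRBP_2 and SiCIRBP_3. All 3 SiCIRBP libraries were therefore below all 3 NC libraries. The libraries held 25726259 to 29919566 estimated counts, of which the 38 RNAs took 0.202% to 0.245%. The study left NC_1 and SiCIRBP_2 out of its own test because they stood out most in correlation and principal component analyses of these same data. P-values over the remaining 4 libraries can therefore understate the spread between libraries. Results below are given over these 4 libraries first and, for the members and lists, over all 6 beside them. The SiCIRBP libraries differed among themselves in 20 interferon-stimulated genes, which summed to 855 to 894 TPM (a share of transcripts corrected for their length) in NC and to 396, 8705 and 1722 TPM in SiCIRBP_1, SiCIRBP_2 and SiCIRBP_3. All 20 were highest in SiCIRBP_2, 18 were above every NC library in SiCIRBP_3 and 19 were below every NC library in SiCIRBP_1, so the SiCIRBP libraries of the 4-library test lay on opposite sides of NC. In SiCIRBP_2, 18.0% of all genes tested lay more than 1 on the log2 scale from the mean of the NC libraries, against 6.81% in SiCIRBP_1 and 7.66% in SiCIRBP_3. Of 12 cardiomyocyte markers, MYH6, RYR2 and MYL2 were listed at 0 in every library and TNNT2, MYH7, NPPA, NPPB and MYL7 stayed under 1 TPM. TNNI3 had 0.11 to 2.45 TPM, NKX2-5 3.39 to 9.69, ACTN2 7.86 to 15.9 and GATA4 22.6 to 63.0 TPM. Most defining markers of a contracting cardiomyocyte were thus at or near 0. Of 10 fibroblast and mesenchymal markers all were measured, led by VIM at 2724 to 3663 TPM. The cardiomyocyte markers summed to 72.7 to 89.6 TPM in NC and 41.0 to 61.1 TPM in SiCIRBP. For the fibroblast and mesenchymal markers the sums were 4591 to 4892 and 4405 to 6177 TPM, and for 5 endothelial markers 12.6 to 15.7 and 9.10 to 14.6 TPM. Of the endothelial markers PECAM1, CDH5 and VWF stayed under 1 TPM, KDR had 2.12 to 5.04 and TEK 5.12 to 11.15 TPM. The part of these cell type markers and of the interferon-stimulated genes in the results was not tested. In bulk samples such as these, fewer cells of a type and less RNA per cell cannot be told apart.

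The start sites and microRNAs that the results below refer to are shown first, as RefSeq gives them on GRCh38.p14. Of the 38 RNAs, 32 were in the RefSeq promoter table. A C at the annotated start followed by at least 4 pyrimidines was found in 6 of 23 snoRNA hosts (26.1%) and in 0 of 9 other members, against 1429 of 35116 promoters in the table (4.07%). The windows below run from 20 bases before the start to 30 bases from it, 5′ to 3′ on the strand of the gene, with the pyrimidine run at the start in capitals. The first 3 belong to hosts that rose, ZFAS1 to a host that fell, and SNHG5 and SNHG19 to hosts that did neither. DANCR and EPB41L4A-AS1, the hosts with the largest rise and the largest fall among those past the test, are shown because they have no such run at the annotated start.
SNHG12 (chr1:28581844-28581893, minus strand): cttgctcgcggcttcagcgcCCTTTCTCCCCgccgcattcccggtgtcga
SNHG18 (chr5:9546180-9546229, plus strand): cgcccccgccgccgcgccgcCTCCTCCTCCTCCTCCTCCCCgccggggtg
SNHG4 (chr5:139274081-139274130, plus strand): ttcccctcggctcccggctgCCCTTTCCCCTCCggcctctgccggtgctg
ZFAS1 (chr20:49278622-49278671, plus strand): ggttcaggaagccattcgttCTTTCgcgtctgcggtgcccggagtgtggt
SNHG5 (chr6:85678704-85678753, minus strand): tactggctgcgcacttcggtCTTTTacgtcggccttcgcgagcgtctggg
SNHG19 (chr16:2155329-2155378, minus strand): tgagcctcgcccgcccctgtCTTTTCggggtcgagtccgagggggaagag
DANCR (chr4:52712374-52712423, plus strand): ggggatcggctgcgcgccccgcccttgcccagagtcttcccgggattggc
EPB41L4A-AS1 (chr5:112160506-112160555, plus strand): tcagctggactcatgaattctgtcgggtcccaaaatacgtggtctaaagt

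Allowing the run to begin up to 5 bases on either side of the start, 11 of 23 hosts (47.8%) had it. DANCR, SNHG7 and SNHG17 were among them. It was also found in 3 of the 9 other members (33.3%), against 21.1% of all promoters. The run was thus found in hosts that rose, in hosts that fell and in hosts that did neither. Across the 250 bases before and the 50 bases after the start, the letters CACGTG (an E-box, the same on both strands) occurred in NORAD, OIP5-AS1, SNHG7 and TUG1, that is in 4 of 32 members (12.5%) against 7.26% of all promoters. The letters TATAAA, searched on both strands, occurred in MEG3, SNHG1, SNHG7, SNHG11 and SNHG19, that is in 5 of 32 (15.6%) against 11.5% of all. The cyclic AMP response element TGACGTCA, the same on both strands, occurred in MEG3 alone of the 32, against 1.85% of all promoters. These matches describe letters and not bound factors.

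MIR22HG and H19, which had the largest rises of the members past the test, each carry a microRNA inside an exon, MIR22 and MIR675. Their mature arms follow, 5′ to 3′, with the seed (bases 2 to 8) in capitals. The 4 seeds all differ.
hsa-miR-22-3p (chr17:1713914-1713935, minus strand): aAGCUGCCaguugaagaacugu
hsa-miR-22-5p (chr17:1713952-1713973, minus strand): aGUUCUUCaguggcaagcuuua
hsa-miR-675-5p (chr11:1996800-1996822, minus strand): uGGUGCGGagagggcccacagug
hsa-miR-675-3p (chr11:1996768-1996787, minus strand): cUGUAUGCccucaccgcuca

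The libraries did not measure the small RNAs themselves. GENCODE 29 placed at least 1 snoRNA gene inside 25 of the 26 snoRNA hosts, and the snoRNA and microRNA genes inside any 1 member summed to at most 8 counts in any library. Both MIR22 and MIR675 had 0 counts in every library, so what follows concerns the host transcripts.

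On the TPM scale, which corrects for transcript length, the 38 RNAs ranged from SNHG5, the highest, to KCNQ1OT1, the lowest. The 5 highest were all snoRNA hosts. SNHG5 had 697 ± 37.8 TPM in NC (mean ± SD, n = 3) and 689 ± 106 TPM in SiCIRBP (n = 3). SNHG29 had 637 ± 61.3 and 607 ± 136 TPM, and GAS5, a growth-arrest transcript, had 475 ± 95.0 and 326 ± 68.7 TPM. ZFAS1 followed with 331 ± 50.7 and 276 ± 99.5 TPM, and SNHG6 with 278 ± 10.7 and 257 ± 39.5 TPM. For each of these 5 the ranges of the groups overlapped on the CPM scale used for the tests.

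**Figure D1:**
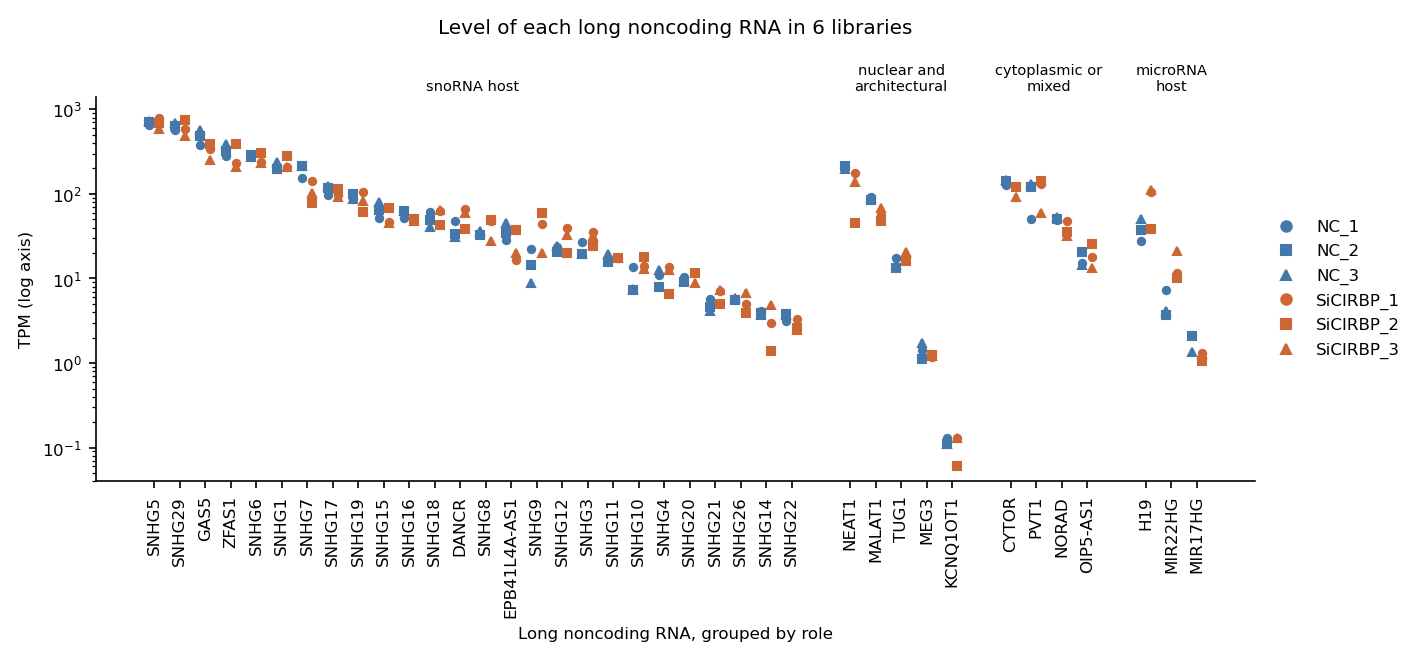
TPM (log axis) of each of the 38 long noncoding RNAs in each library, with NC libraries in blue, SiCIRBP libraries in orange and 1 point per library. SNHG5 and SNHG29 lie highest, at means of 697 and 637 TPM in NC, NEAT1 in SiCIRBP_2 falls well below its other 5 points, and KCNQ1OT1 lies lowest.

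Among the nuclear RNAs NEAT1 was highest, at 205 ± 9.08 TPM in NC and 119 ± 67.0 TPM in SiCIRBP, and MALAT1 followed at 88.8 ± 2.55 and 57.1 ± 10.5 TPM. TUG1 had 15.0 ± 2.25 TPM in NC, MEG3 1.42 ± 0.320 TPM and KCNQ1OT1 0.117 ± 0.0115 TPM. KCNQ1OT1 is annotated as 1 very long transcript, and its TPM is low while its CPM in NC was 7.54 to 9.15. Among the cytoplasmic or mixed RNAs the NC means were 139 TPM for CYTOR, 101 for PVT1, 50.8 for NORAD and 16.8 for OIP5-AS1. The 3 microRNA hosts had NC means of 38.6 TPM for H19, 5.08 for MIR22HG and 1.87 for MIR17HG.

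Over the 4 libraries 15 of the 38 RNAs passed the test (edgeR quasi-likelihood, Benjamini-Hochberg adjusted p under 0.05 over all genes), which is 39.5%, against 19.4% of all 15421 genes tested. Of these, 9 rose (23.7%, against 9.62% of all genes) and 6 fell (15.8%, against 9.76%). Below, rose and fell are used only of RNAs past this test. The libraries left out did not always lie with their group. NC_1 lay from the other NC libraries toward SiCIRBP in 8 of the 9 that rose and 6 of the 6 that fell. SiCIRBP_2 was above the NC mean in 8 of the 9 that rose, and below it in 1 of the 6 that fell. Fitted changes were above 0 for 18 and below 0 for 20, with a median log2 fold change of -0.01, against -0.00 over all genes tested. At least 2-fold changes were found for MIR22HG, H19 and DANCR, 3 of 38 (7.89%, against 3.62% of all genes).

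Over all 6 libraries edgeR passed 0 of the 38, as it passed 0 of all 15217 genes tested (0%). At an unadjusted p under 0.05 it marked 10 of the 38 (26.3%, against 23.7% of all genes): DANCR, H19, MALAT1, MIR22HG, SNHG3, SNHG7, SNHG9, SNHG10, SNHG12 and SNHG21. DESeq2 over 6 libraries passed H19, MIR22HG and SNHG9, 3 of the 37 it tested (8.11%, against 9.30% of all genes). DESeq2 over the 4 libraries passed 16 of 35 (45.7%, against 23.3% of all genes), the 15 above and NEAT1. In 4 RNAs all 3 SiCIRBP libraries were above all 3 NC libraries (MIR22HG, SNHG3, SNHG9 and SNHG21, 10.5% against 16.2% of all genes). In 3 all were below (NEAT1, MALAT1 and CYTOR, 7.89% against 16.6%). For these 7 an exact permutation test of 3 libraries against 3, two-sided, gave p = 0.1, the smallest this design allows. Groups without overlap always give this p, so the test adds nothing to the separation by which the 7 were picked.

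**Figure D2:**
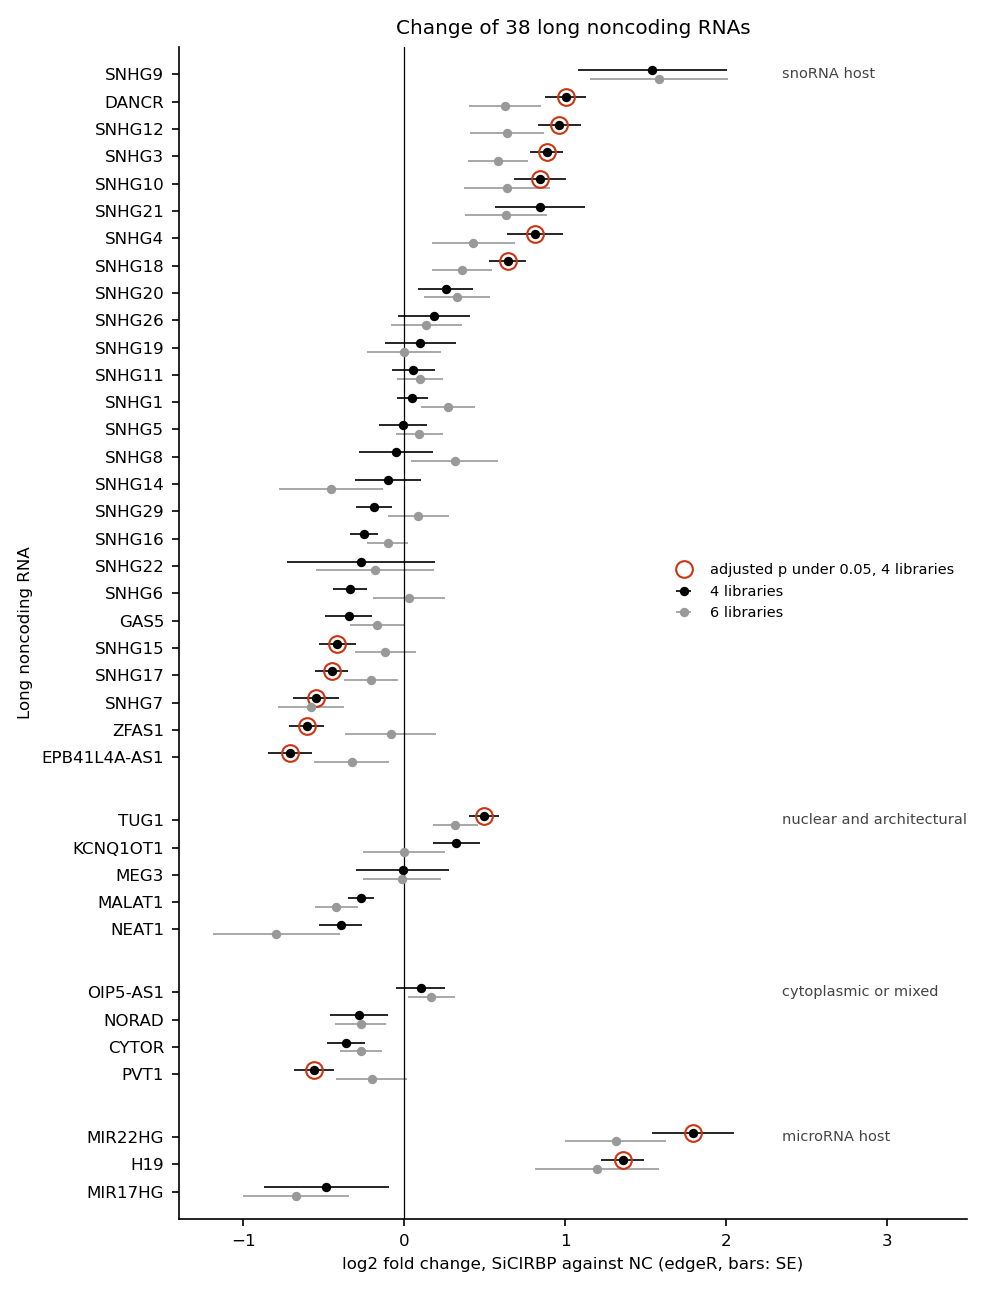
Log2 fold change (SiCIRBP against NC, edgeR) of each RNA over 4 libraries (black) and 6 libraries (grey), with bars of 1 SE and red circles at RNAs past the test over 4 libraries. Red circles lie on both sides of 0 among the snoRNA hosts, and over 6 libraries ZFAS1 moves from -0.61 to -0.08 while SNHG7 stays near -0.55.

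Of the 26 snoRNA hosts, 6 rose (DANCR, SNHG12, SNHG3, SNHG10, SNHG4 and SNHG18, 23.1% against 9.62% of all genes), 5 fell (EPB41L4A-AS1, ZFAS1, SNHG7, SNHG17 and SNHG15, 19.2% against 9.76%) and 15 did not pass. The median log2 fold change of the 26 was 0.02 over 4 libraries and 0.10 over 6. Changes in both directions were thus found among the hosts.

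DANCR, which hosts SNORA26 (chr4:52712404-52720351, GENCODE 29 on GRCh38), had 23.6, 16.7 and 14.8 CPM in NC_1, NC_2 and NC_3 and 33.3, 22.2 and 29.8 CPM in SiCIRBP_1, SiCIRBP_2 and SiCIRBP_3. The 2 SiCIRBP libraries of the 4-library test were above every NC library, while SiCIRBP_2 lay below NC_1. The log2 fold change was 1.00 ± 0.13 (SE) over 4 libraries (edgeR adjusted p = 0.00718) and 0.63 ± 0.22 over 6 (adjusted p = 0.156).

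SNHG12 (chr1:28578538-28583132), host of SNORA44 and SNORA61 among others, had 17.1, 12.9 and 14.4 CPM in NC and 28.6, 15.9 and 24.7 CPM in SiCIRBP, in the order of the library numbers. SiCIRBP_2 again lay within the NC range. edgeR gave SNHG12 a log2 fold change of 0.96 ± 0.13 over 4 libraries (adjusted p = 0.00903) and 0.64 ± 0.23 over 6 (adjusted p = 0.159).

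SNHG3 (chr1:28505980-28510892), host of the SNORA73 pair, had 42.7, 30.5 and 29.3 CPM in NC and 58.2, 43.3 and 52.2 CPM in SiCIRBP. All SiCIRBP libraries were above all NC libraries, though SiCIRBP_2 only narrowly above NC_1. SNHG3 had a fitted log2 fold change of 0.89 ± 0.10 over 4 libraries (edgeR adjusted p = 0.00648) and 0.58 ± 0.19 over 6 (adjusted p = 0.133). SNHG3 shares 5.92% of its exonic bases with RCC1 on the same strand, which had 141 to 167 CPM in NC and 179.8 to 213 CPM in SiCIRBP, so reads of the pair could be split between them.

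SNHG10 (chr14:95532297-95534872), host of SCARNA13, had 9.18, 5.09 and 5.22 CPM in NC and 9.62, 11.9 and 8.87 CPM in SiCIRBP. NC_1 lay among the SiCIRBP libraries and SiCIRBP_2 was the highest of all. The log2 fold change was 0.84 ± 0.16 over 4 libraries (edgeR adjusted p = 0.0192) and 0.64 ± 0.27 over 6 (adjusted p = 0.201). The strand setting of the counting is not given in the sources used here, and 20.1% of the exonic bases of SNHG10 lie opposite GLRX5, which had 71.8 to 92.7 CPM in NC and 96.3 to 112 CPM in SiCIRBP.

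SNHG4 (chr5:139274102-139284899), host of SNORA74A, had 12.8, 7.81 and 10.3 CPM in NC and 16.8, 9.80 and 15.0 CPM in SiCIRBP. SiCIRBP_2 lay within the NC range. edgeR gave SNHG4 a log2 fold change of 0.81 ± 0.17 over 4 libraries (adjusted p = 0.0238) and 0.43 ± 0.26 over 6 (adjusted p = 0.332). SNHG4 shares 14.0% of its exonic bases with MATR3 on the same strand, so reads of the pair could be split between them.

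SNHG18 (chr5:9546200-9550609), host of SNORD123, had 60.1, 45.8 and 37.7 CPM in NC and 65.0, 54.0 and 65.2 CPM in SiCIRBP. SiCIRBP_2 lay below NC_1. SNHG18 had a fitted log2 fold change of 0.64 ± 0.12 over 4 libraries (edgeR adjusted p = 0.0163) and 0.36 ± 0.18 over 6 (adjusted p = 0.268).

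EPB41L4A-AS1 (chr5:112160526-112164276), host of SNORA13, fell the most among the hosts. Its values were 16.7, 19.7 and 22.5 CPM in NC and 13.7, 21.3 and 12.1 CPM in SiCIRBP. SiCIRBP_1 and SiCIRBP_3 were below every NC library, while SiCIRBP_2 lay within the NC range. The log2 fold change was -0.71 ± 0.14 over 4 libraries (edgeR adjusted p = 0.0190) and -0.32 ± 0.23 over 6 (adjusted p = 0.410). It lies opposite EPB41L4A over 49.6% of its exonic bases, and that gene stayed at or below 0.0984 CPM.

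ZFAS1 (chr20:49278178-49295738), host of the SNORD12 family, had 81.2, 93.9 and 106 CPM in NC and 70.2, 134 and 61.0 CPM in SiCIRBP. SiCIRBP_2 was the highest of the 6 libraries, and the other SiCIRBP libraries were the lowest. edgeR gave ZFAS1 a log2 fold change of -0.61 ± 0.11 over 4 libraries (adjusted p = 0.0161) and -0.08 ± 0.28 over 6 (adjusted p = 0.873).

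SNHG7 (chr9:136721366-136728184), host of SNORA17A and SNORA17B, had 98.3, 132 and 131 CPM in NC and 103, 62.3 and 76.5 CPM in SiCIRBP. It was the only host that fell in which SiCIRBP_2 was below all NC libraries, and the groups overlapped because NC_1 lay below SiCIRBP_1. SNHG7 had a fitted log2 fold change of -0.55 ± 0.14 over 4 libraries (edgeR adjusted p = 0.0402) and -0.58 ± 0.21 over 6 (adjusted p = 0.157). FAM69B, which lies opposite 25.2% of its exonic bases, had 28.4 to 28.8 CPM in NC, 25.9 and 24.5 CPM in SiCIRBP_1 and SiCIRBP_3, and 9.92 CPM in SiCIRBP_2.

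SNHG17 (chr20:38420588-38435353), host of SNORA71 snoRNAs, had 46.5, 60.4 and 66.7 CPM in NC and 48.4, 57.6 and 44.6 CPM in SiCIRBP. SNHG15 (chr7:44983023-44986961), host of SNORA9, had 34.4, 41.9 and 49.4 CPM in NC and 34.6, 47.5 and 34.0 CPM in SiCIRBP. In both, SiCIRBP_2 lay between the NC libraries and NC_1 lay beside SiCIRBP_1. Over 4 libraries the log2 fold changes were -0.45 ± 0.10 for SNHG17 (edgeR adjusted p = 0.0277) and -0.41 ± 0.11 for SNHG15 (adjusted p = 0.0489). Over 6 libraries they were -0.21 ± 0.17 (edgeR adjusted p = 0.466) and -0.12 ± 0.19 (adjusted p = 0.725).

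**Figure D3:**
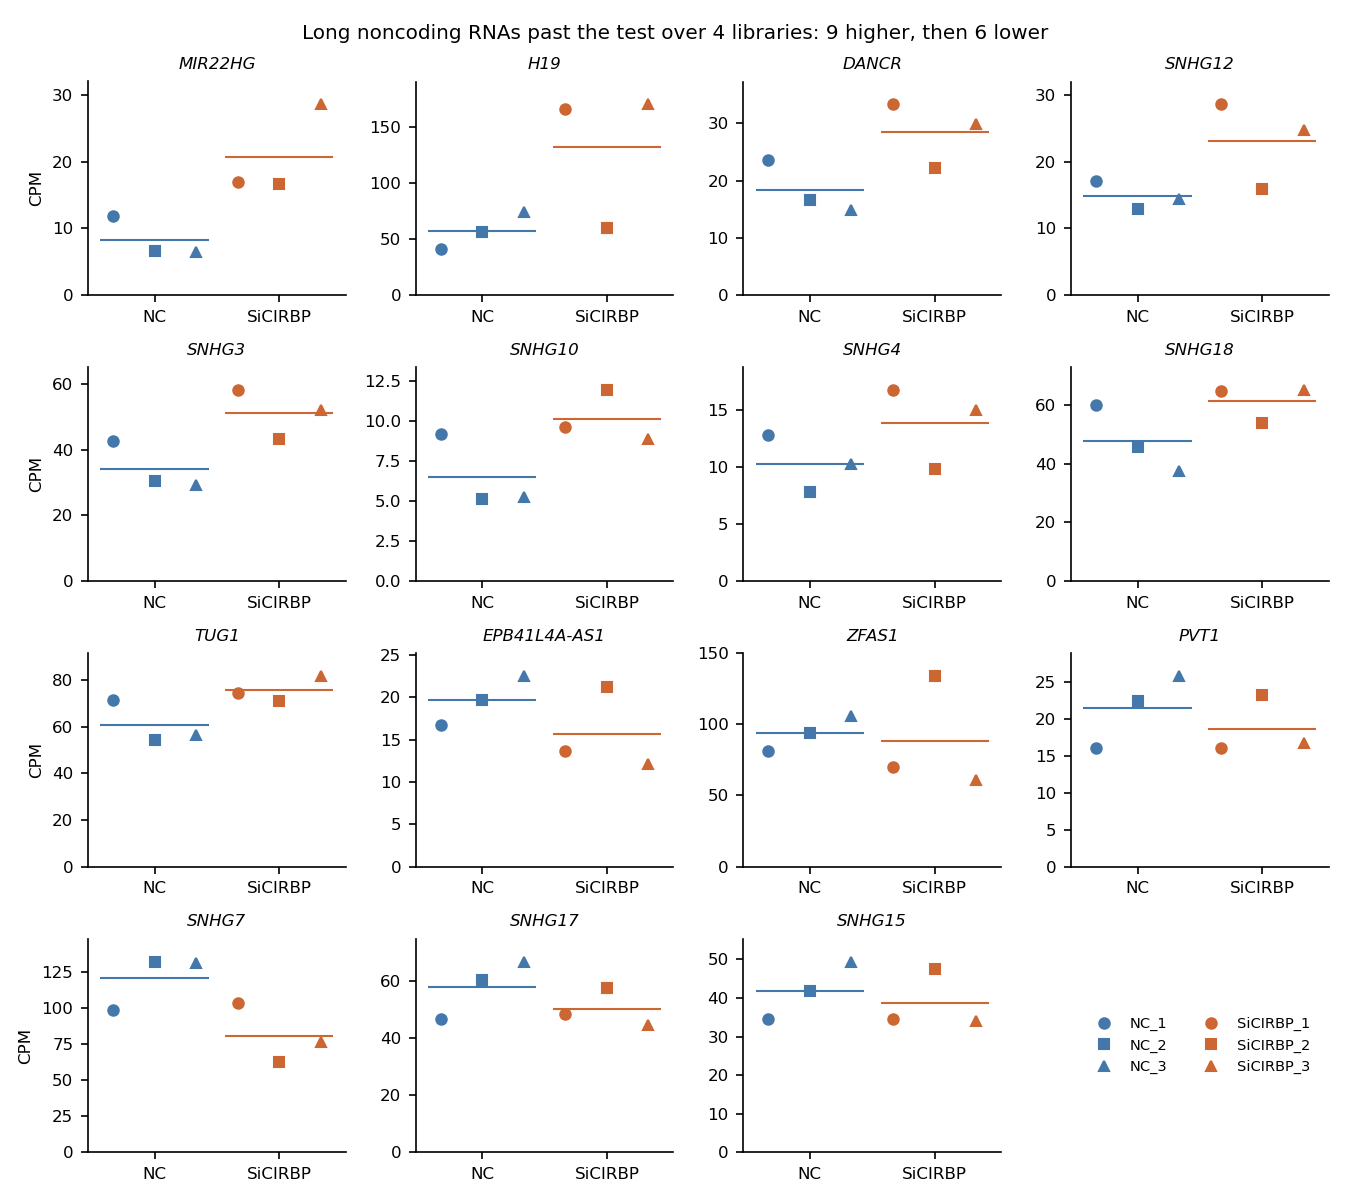
CPM in each library for the 15 RNAs past the test over 4 libraries, with NC in blue, SiCIRBP in orange and lines at the group means of 3 libraries. For MIR22HG and SNHG3 every orange point lies above every blue point, while for ZFAS1 SiCIRBP_2 is the highest point at 134 CPM.

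SNHG9, a short host of SNORA78 (chr16:1964959-1965509), had the largest fitted change among the hosts without passing the edgeR test. It was low, at 0.876, 0.738 and 0.394 CPM in NC and 2.05, 2.76 and 1.21 CPM in SiCIRBP, from 12 to 71 counts. All SiCIRBP libraries were above all NC libraries. The log2 fold change was 1.54 ± 0.46 over 4 libraries (edgeR adjusted p = 0.0600) and 1.58 ± 0.43 over 6 (adjusted p = 0.110, and 0.0236 with DESeq2).

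SNHG21, host of SCARNA15 (chr15:82750564-82757206), had 1.72, 1.44 and 1.21 CPM in NC and 2.36, 2.02 and 2.39 CPM in SiCIRBP, without overlap. edgeR gave SNHG21 a log2 fold change of 0.84 ± 0.28 over 4 libraries (adjusted p = 0.0773) and 0.63 ± 0.26 over 6 (adjusted p = 0.190). It shares 72.9% of its exonic bases with AC105339.2 on the same strand, so its counts are uncertain.

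Of the 5 most abundant hosts, ZFAS1 fell as described above and the other 4 did not pass. SNHG5, host of SNORD50B, had 102, 108 and 113 CPM in NC and 127, 125 and 92.4 CPM in SiCIRBP, and SiCIRBP_3 was the lowest library while the other SiCIRBP libraries were the highest. SNHG29, host of SNORD49A and SNORD49B, had 256, 276 and 299 CPM in NC and 278, 379 and 227 CPM in SiCIRBP, with the highest and the lowest library both in SiCIRBP. Over 4 libraries their log2 fold changes were -0.01 ± 0.15 (edgeR adjusted p = 0.979) and -0.19 ± 0.11 (adjusted p = 0.276), and over 6 libraries they were 0.09 ± 0.15 and 0.09 ± 0.19.

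GAS5 had 111, 133 and 150.3 CPM in NC and 128, 128 and 95.5 CPM in SiCIRBP, with overlap. SNHG6, host of SNORD87, had 50.6, 54.7 and 58.3 CPM in NC and 47.6, 77.8 and 41.9 CPM in SiCIRBP, so that SiCIRBP_2 was the highest and the other SiCIRBP libraries the lowest, as in ZFAS1. Over 4 libraries the log2 fold changes were -0.34 ± 0.15 for GAS5 (edgeR adjusted p = 0.138) and -0.34 ± 0.10 for SNHG6 (adjusted p = 0.0656). Over 6 libraries they were -0.17 ± 0.17 and 0.03 ± 0.23.

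The other 9 hosts had fitted log2 fold changes over 4 libraries between -0.27 and 0.26, and none passed. Over 6 libraries these lay between -0.45 and 0.33, with SNHG8 at -0.05 over 4 and 0.31 over 6. SNHG1, a host of several box C/D snoRNAs, was the highest of them at 209.9 ± 24.1 TPM in NC. SNHG19 had 91.2 TPM in NC, SNHG16 58.8, SNHG8 34.5 and SNHG11 17.6. SNHG20 had 9.65 TPM, SNHG26 5.63, SNHG14 3.92 and SNHG22 3.56. SNHG14, the long transcript of the Prader-Willi region with the SNORD115 and SNORD116 clusters, had 11.1 to 12.5 CPM in NC, 8.42 and 12.5 CPM in SiCIRBP_1 and SiCIRBP_3, and 4.55 CPM in SiCIRBP_2. SiCIRBP_2 lay outside the other 5 libraries by -0.89 on the log2 scale.

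Of the 5 nuclear RNAs, 1 rose (TUG1, against 9.62% of all genes), 0 fell (against 9.76%) and 4 did not pass over 4 libraries. NEAT1 and MALAT1 were lower in all 3 SiCIRBP libraries than in all 3 NC libraries, as were 16.6% of all genes. NEAT1 (chr11:65422774-65445540) had 468, 475 and 425 CPM in NC and 386, 105 and 299 CPM in SiCIRBP. SiCIRBP_2 lay outside the other 5 libraries by -1.51 on the log2 scale, and NEAT1 was the only member more than 1 outside them. NEAT1 had a fitted log2 fold change of -0.39 ± 0.13 over 4 libraries (edgeR adjusted p = 0.0782) and -0.79 ± 0.39 over 6 (adjusted p = 0.258). SiCIRBP_2 was also the library with the highest interferon-stimulated genes and the lowest CIRBP, and the part of either in the level of NEAT1 was not tested.

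MALAT1 (chr11:65497688-65506516) had 146, 131 and 137 CPM in NC and 110.0, 86.3 and 113 CPM in SiCIRBP. The groups did not overlap and SiCIRBP_2 was again the lowest. The log2 fold change was -0.27 ± 0.08 over 4 libraries (edgeR adjusted p = 0.0584) and -0.42 ± 0.14 over 6 (adjusted p = 0.136).

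TUG1 (chr22:30969245-30979395), a mostly nuclear RNA linked to gene silencing, had 71.5, 54.3 and 56.7 CPM in NC and 74.7, 71.1 and 81.9 CPM in SiCIRBP. The groups touched, with NC_1 just above SiCIRBP_2. edgeR gave TUG1 a log2 fold change of 0.50 ± 0.09 over 4 libraries (adjusted p = 0.0174) and 0.32 ± 0.14 over 6 (adjusted p = 0.214). The imprinted RNA KCNQ1OT1 had a log2 fold change of 0.33 ± 0.15 over 4 libraries and -0.00 ± 0.25 over 6, with SiCIRBP_2 lowest at 5.29 CPM against 7.54 CPM or more elsewhere. MEG3, also imprinted, had -0.01 ± 0.29 and -0.01 ± 0.24, and neither passed.

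Of 14 genes of paraspeckle and nuclear speckle proteins, 7 rose (50%, against 9.62% of all genes) and 1 fell (7.14%, against 9.76%) over 4 libraries, with a median log2 fold change of 0.32 against -0.00 over all genes tested. Over 6 libraries edgeR passed 0 of them, 6 had an unadjusted p under 0.05 (42.9%, against 23.7%), DESeq2 passed 4 (28.6%, against 9.30%), and the median was 0.30. RBM14, a paraspeckle protein needed for the bodies to form, had 87.2, 53.9 and 51.7 CPM in NC and 119.5, 132 and 129 CPM in SiCIRBP, without overlap. Its log2 fold change was 1.23 ± 0.09 over 4 libraries (edgeR adjusted p = 0.00262) and 0.98 ± 0.21 over 6 (adjusted p = 0.0913).

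SFPQ, a core paraspeckle protein that binds NEAT1, had 316, 201 and 185 CPM in NC and 396, 382 and 432 CPM in SiCIRBP, also without overlap. Its log2 fold change was 1.10 ± 0.09 over 4 libraries (edgeR adjusted p = 0.00289) and 0.79 ± 0.20 over 6 (adjusted p = 0.107). The splicing factors SRSF2 and SRSF1 rose by 0.92 ± 0.10 and 0.67 ± 0.12 over 4 libraries (0.69 ± 0.18 and 0.54 ± 0.16 over 6). HNRNPH3, PSPC1 and CPSF6 rose by 0.54 ± 0.08, 0.44 ± 0.11 and 0.35 ± 0.09 on the log2 scale. Over 6 libraries these 3 had 0.33 ± 0.15, 0.35 ± 0.19 and 0.30 ± 0.12. SRRM2, a scaffold of nuclear speckles, fell by 0.28 ± 0.08 (log2 fold change -0.47 ± 0.25 over 6). It had 371 CPM in SiCIRBP_2 against 705 CPM or more elsewhere. NEAT1 and MALAT1 thus had lower values in SiCIRBP while several genes of the proteins of the same bodies had higher ones. In every gene of this list that rose, NC_1, left out of the 4-library test, lay above the other NC libraries. Only in PSPC1 was NC_1, at 106 CPM, also above SiCIRBP_1 and SiCIRBP_3, at 96.3 and 101 CPM.

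**Figure D4:**
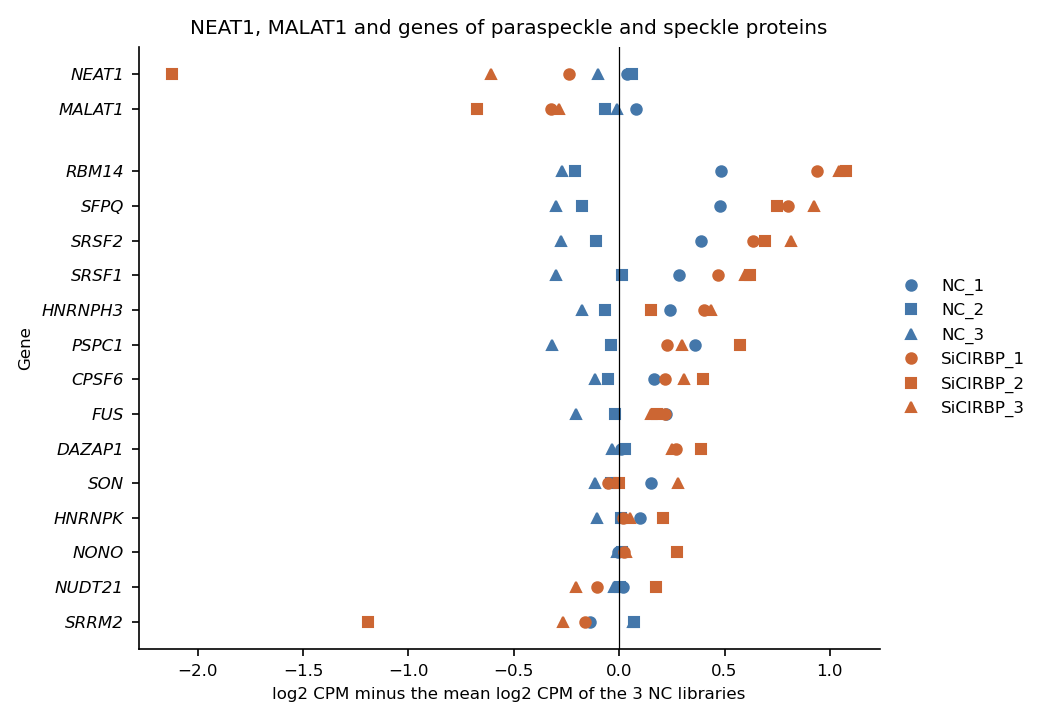
Log2 CPM of NEAT1, MALAT1 and 14 genes of paraspeckle and nuclear speckle proteins in each library, minus the mean of the 3 NC libraries. NEAT1 and MALAT1 lie left of 0 in each SiCIRBP library, RBM14 and SFPQ in each SiCIRBP library lie right of every NC library, and NEAT1 and SRRM2 lie far left in SiCIRBP_2.

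Of the 4 cytoplasmic or mixed RNAs, PVT1 fell (against 9.76% of all genes) and the other 3 did not pass. PVT1, a transcript neighbouring MYC, had 16.0, 22.3 and 25.8 CPM in NC and 16.0, 23.1 and 16.7 CPM in SiCIRBP. NC_1 lay with SiCIRBP_1 and SiCIRBP_3, and SiCIRBP_2 lay between NC_2 and NC_3. PVT1 had a fitted log2 fold change of -0.56 ± 0.13 over 4 libraries (edgeR adjusted p = 0.0284) and -0.20 ± 0.22 over 6 (adjusted p = 0.594).

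CYTOR (chr2:87454781-87636740) had 47.2, 51.4 and 48.2 CPM in NC and 42.1, 44.5 and 35.4 CPM in SiCIRBP, without overlap. The log2 fold change was -0.36 ± 0.12 over 4 libraries (edgeR adjusted p = 0.0731) and -0.27 ± 0.13 over 6 (adjusted p = 0.249). CYTOR has a closely related copy elsewhere on its chromosome, so its counts are uncertain. NORAD, an abundant cytoplasmic RNA linked to genome stability, had 196 to 206 CPM in NC and 132 to 201 CPM in SiCIRBP, with a log2 fold change of -0.28 ± 0.18 over 4 libraries and -0.27 ± 0.16 over 6. OIP5-AS1 had a log2 fold change of 0.10 ± 0.15 over 4 and 0.17 ± 0.15 over 6.

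The microRNA hosts MIR22HG and H19 had the largest rises of the members past the test. MIR22HG (chr17:1711493-1717174), host of miR-22, which is abundant in heart muscle, had 11.8, 6.68 and 6.43 CPM in NC and 16.9, 16.6 and 28.6 CPM in SiCIRBP. All SiCIRBP libraries were above all NC libraries, SiCIRBP_2 included. edgeR gave MIR22HG a log2 fold change of 1.79 ± 0.25 over 4 libraries (adjusted p = 0.00944, 3.47-fold) and 1.31 ± 0.31 over 6 (adjusted p = 0.1002, and 0.00148 with DESeq2).

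H19 (chr11:1995176-2001470), the imprinted host of miR-675, had 41.5, 56.5 and 74.2 CPM in NC and 165, 60.2 and 169.8 CPM in SiCIRBP. SiCIRBP_1 and SiCIRBP_3 were far above every NC library, while SiCIRBP_2 lay among them. H19 had a fitted log2 fold change of 1.36 ± 0.13 over 4 libraries (edgeR adjusted p = 0.00476, 2.56-fold) and 1.20 ± 0.38 over 6 (adjusted p = 0.136, and 0.0144 with DESeq2). MIR17HG, host of the miR-17-92 cluster, was low, at 1.15 to 2.10 CPM in NC and 0.817 to 1.23 CPM in SiCIRBP, and did not pass (log2 fold change -0.48 ± 0.39 over 4 libraries and -0.67 ± 0.33 over 6).

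Of 9 microRNA biogenesis factors over 4 libraries, 1 rose (11.1%, against 9.62% of all genes), 1 fell (11.1%, against 9.76%) and the other 7 did not pass. DGCR8, the partner of DROSHA in cutting primary microRNAs, rose by 0.42 ± 0.08 and AGO1 fell by 0.41 ± 0.08 on the log2 scale. Over 6 libraries their log2 fold changes were 0.27 ± 0.12 and -0.61 ± 0.27, and neither passed the edgeR test. The median of the 9 was -0.17, and -0.20 over 6 libraries.

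Other lists held genes of the proteins that act on the hosts or their snoRNAs. Of 15 genes of snoRNA-binding proteins and their assembly factors, 2 rose over 4 libraries (13.3%, against 9.62% of all genes) and 0 fell (0%, against 9.76%). Those that rose were DKC1, the pseudouridine synthase of box H/ACA particles (log2 fold change 0.52 ± 0.08), and SHQ1, its assembly factor (0.48 ± 0.11). Over 6 libraries DKC1 and SHQ1 had 0.56 ± 0.13 and 0.23 ± 0.18. SiCIRBP_2, at 26.7 CPM, lay within the NC range of SHQ1. The median of the 15 was 0.19 over both 4 and 6 libraries. Of 16 nonsense-mediated decay factors, UPF2 and EIF4A3 rose by 0.42 ± 0.11 and 0.40 ± 0.08 (12.5%, against 9.62%). NBAS fell by 0.63 ± 0.10 (6.25%, against 9.76%), and the median of the 16 was 0.11 (0.06 over 6 libraries). Over 6 libraries UPF2, EIF4A3 and NBAS had log2 fold changes of 0.26 ± 0.14, 0.38 ± 0.13 and -0.67 ± 0.20. Of 20 protein-coding genes with snoRNAs in their introns, NCL and EIF4A1 rose by 0.28 ± 0.07 and 0.34 ± 0.08 (10%, against 9.62%). EIF4A2 fell by 0.49 ± 0.09 (5%, against 9.76%), and the median of the 20 was -0.02 (0.04 over 6). Over 6 libraries NCL, EIF4A1 and EIF4A2 had log2 fold changes of 0.29 ± 0.12, 0.44 ± 0.14 and -0.39 ± 0.12. Of the 75 genes of all pathway lists, 18 passed over 4 libraries (24.0%, against 19.4% of all genes). Over 6 libraries edgeR passed 0, with 23 at an unadjusted p under 0.05 (30.7%, against 23.7%), while DESeq2 passed 7 (9.33%, against 9.30%).

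Count divided by TPM gives the transcript length that the authors' quantification assigned to a gene, here taken relative to the median gene of each library, and it moves when a library's reads are assigned to shorter or longer isoforms. It could be followed for 32 of the 38 RNAs. In 7 it was shorter in all SiCIRBP libraries than in all NC libraries (DANCR, MIR22HG, NEAT1, SNHG10, SNHG14, SNHG17 and TUG1), against 11.8% of 11183 genes, and in SNHG7 it was longer, against 6.81% of genes. Relative length was 0.973, 1.11 and 0.987 in NC and 0.853, 0.863 and 0.786 in SiCIRBP for MIR22HG. SiCIRBP_3 had the shortest MIR22HG and also the highest MIR22HG level. In GAS5 the length was 0.169 to 0.179 in NC, 0.216 and 0.220 in SiCIRBP_1 and SiCIRBP_3, and 0.173 in SiCIRBP_2. PVT1 moved the most, at 0.194, 0.114 and 0.123 in NC and 0.0713, 0.0851 and 0.163 in SiCIRBP, with overlap. Its TPM was 50.1, 120 and 133 in NC and 130, 141 and 58.9 in SiCIRBP, also with overlap. Over all 6 libraries its TPM mean was 101 in NC and 110.2 in SiCIRBP. Its log2 fold change from counts over the same 6 libraries was -0.20 ± 0.22 and did not pass. EPB41L4A-AS1 had 0.320 to 0.352 in NC, 0.487 and 0.347 in SiCIRBP_1 and SiCIRBP_3 and 0.294 in SiCIRBP_2. The single-isoform NORAD stayed between 2.40 and 2.46 in all libraries. SNHG19, also annotated as 1 transcript, ranged from 0.0391 to 0.0441, with overlap between the groups. A move of this measure need not therefore reflect a change of isoform. In SiCIRBP_2, 18.5% of all genes were shorter than in every other library. These lengths are a description with no test.

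The counts of RNAs past the test depended on which libraries were used. Without NC_2 or without NC_3 only H19 passed among the remaining 3 of the 4 libraries, where 1.04% and 0.403% of all genes passed. Without SiCIRBP_1 or without SiCIRBP_3 24 of the 38 passed, where 44.3% and 40.2% of all genes did. With all libraries except SiCIRBP_2, 5 passed (DANCR, H19, MIR22HG, SNHG3 and SNHG12), where 7.20% of all genes did.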

How the data were processed

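RNA from 3 NC and 3 SiCIRBP libraries was sequenced. The authors deposited estimated counts and TPM values per gene and library. The submitters' processing notes name fastp, HISAT, RSEM and build hg38, and neither their versions nor the strand setting are given in the sources used here. Gene coordinates were taken from GENCODE 29, in which 58611 gene IDs were found, and start sites and microRNAs from RefSeq on GRCh38.p14. Columns of the authors' own fold changes and p-values, and a second deposited table that held only that comparison, were not used.

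Estimated counts were rounded and tested with edgeR 4.0.16 (R 4.3.3, TMM scaling, filterByExpr, quasi-likelihood test), with Benjamini-Hochberg adjustment over all genes tested. The 4 libraries that the study kept (NC_2, NC_3, SiCIRBP_1 and SiCIRBP_3) were the first set and all 6 the second. Each SE was derived from the fitted change and its quasi-likelihood F, as change over root F. CPM values are on the TMM scale of 6 libraries, and TPM values were used to compare levels between genes and to derive implied lengths. The edgeR fits over 4 libraries, over 6, and over 6 with a replicate block were tested on simulated data with the same fixed dispersion for every gene. DESeq2 1.42.0, RLE scaling, other filters, a replicate block and the omission of each library were alternatives, of which only the block was simulated. Same-numbered libraries did not deviate together (correlations of -0.118, 0.006 and -0.026 over 15217 genes), so the numbers were not taken to pair the libraries. Single values were compared by exact permutation (scipy 1.17.1).

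Every member was named with its level, and values in each library were given for members past the test, without overlap between the groups, among the 5 highest in TPM, or with SiCIRBP_2 more than 1 (log2) outside the others. The lengths of GAS5, MIR22HG, NORAD and SNHG19, the values of SNHG14 and NORAD and those of overlapping genes were singled out after they were seen. The members and gene lists were chosen with earlier results of these data known. A further list of genes is not reported here. Depth of 25726259 to 29919566 counts per library left the lowest member, SNHG22, at 9 to 14 counts.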

Additional observations from a re-analysis of the deposited data

How the results depend on the processing

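Of the 38 RNAs, 15 passed over 4 libraries. With DESeq2 on the same libraries 16 passed (23.3% of all genes did), with RLE size factors 14 (19.3%), without a filter on low counts 22 (17.4%), and with at least 10 counts in every library 16 (21.8%). With all 6 libraries edgeR passed 0 and DESeq2 passed 3. Leaving out 1 of the 4 libraries gave 1 to 24, where the group with a single library was assumed to vary like the other group. At least 2-fold changes past the test were 3 over 4 libraries (DANCR, H19 and MIR22HG, against 3.62% of all genes). With all 6 libraries they were 0 in edgeR (against 0%) and 3 in DESeq2 (H19, MIR22HG and SNHG9). Over 6 libraries, where 0 passed, DESeq2 passed 3 (9.30% of all genes), the absence of a filter passed 3 (3.15%), and leaving out 1 library passed 0 to 5. Of the pathway list genes 18 passed over 4 libraries, 26 with DESeq2 on these, 0 with all 6, and, in 2 alternatives chosen after seeing the data, 7 with DESeq2 on all 6 and 2 to 47 with 1 library left out.

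Single values were recomputed under each alternative for 24 RNAs, and among these the sign turned in SNHG5, SNHG6, SNHG15, SNHG29 and ZFAS1. Of the other 14, compared here between 4 and 6 libraries, it turned in SNHG8 (-0.05 and 0.31), SNHG19 (0.10 and -0.00) and KCNQ1OT1 (0.33 and -0.00). Over 4 libraries the log2 fold change of SNHG29 (-0.19) became 0.089 with all 6 libraries and 0.091 with DESeq2 on them, that of SNHG5 (-0.01) became 0.094 and 0.096, and that of SNHG6 (-0.34) became 0.032 and 0.035. SNHG5 passed at -0.26 without SiCIRBP_1 and at 0.20 without SiCIRBP_3, the ends of its range over the 4 libraries. Over 6 libraries with 1 left out, ranges were -0.29 to 0.016 for SNHG15, -0.13 to 0.25 for SNHG29, -0.28 to 0.21 for SNHG6 and -0.51 to 0.13 for ZFAS1, none of which passed in any of these. The cause was not tested.

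With the replicate block over 6 libraries 0 of the 38 passed, with or without the 2-fold limit. The log2 fold changes with the block were 0.060 for SNHG29, 0.081 for SNHG5 and -0.019 for SNHG6 (0.032 without it). The block changed no call of these RNAs over 6 libraries.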
